A study of Arabidopsis thaliana with 12 samples.

Results

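LAS, SPL and SAP are 3 regulators of meristems and flowers in Arabidopsis thaliana, and their transcripts were compared between plants grown at high iron and plants grown at normal iron. They were taken as the probes annotated with exactly 1 gene for LAS (LATERAL SUPPRESSOR, AT1G55580), SPL (SPOROCYTELESS, also NOZZLE, AT4G27330) and SAP (STERILE APETALA, AT5G35770). Each had 1 such probe, so the set is 3 of the 691 genes with a probe of their own, on arrays of 3439 probes. All 12 samples were total RNA of wild-type plants of ecotype Columbia-0, the common laboratory strain. In 6 control samples the plants grew at a normal iron concentration, marked H2O in the titles, and in 6 samples at a high one, marked pFe, which the labels describe as oxidative stress. The sources used here state no plant age, tissue, iron dose, duration or medium, so whether the RNA came from material with flowers is unknown.

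LAS is a GRAS-family transcription factor made at the boundaries of leaf primordia, where it is needed for axillary meristems, the cell groups from which side shoots grow. SPL is a nuclear regulator needed for sporocytes, the cells of anthers and ovules that enter meiosis, and it acts as a transcriptional repressor through co-repressors. SAP is an F-box protein needed for flower and ovule development, and as part of a ubiquitin ligase it also affects organ size. All are known from small groups of cells, and in RNA from whole organs fewer such cells and less transcript per cell cannot be told apart.

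Of the members, LAS rose slightly at high iron after quantile normalization, to 1.14 times its control level. In the values as deposited it stood below control and did not pass. Its rise also did not pass over averages of sample pairs, and LAS passed downward with a running median over probe numbers removed. SPL and SAP did not pass the test after quantile normalization, at 0.907 and 0.879 times control. With the values as deposited both passed downward, as 46.6% of all probes did, SPL at 0.637 and SAP at 0.609 times control. For SAP 4 of its 6 high iron values were there set to a floor for low intensities. Without log2 and floor, the mean deposited intensity at high iron was 0.649 times that of control for SPL and 0.445 times for SAP. After quantile normalization 1 of the 3 genes thus passed, upward, while 33.4% of all probes passed in either direction and 18.2% passed upward. The test was limma on log2 values of the 12 samples, at a threshold of 0.05 for the p-value adjusted by Benjamini-Hochberg over the 3439 probes.

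The deposited values are linear intensities between 0 and 100 in an unstated unit, and the arrays of the groups differ as a whole. The median over all probes lay between 0.555 and 0.618 in control and between 0.352 and 0.446 in high iron samples. High iron samples 3 and 4 held 278 and 271 zeros, against 123 to 145 on the other arrays. Quantile normalization gives every array the same distribution, and log2 values below a floor of -3.24, the 5th percentile of positive values, were set to it. Samples 1 and 2, 3 and 4, and 5 and 6 of a group deviated together (correlations of 0.56 to 0.82 over probes), and the labels do not say whether they are separate plants. P-values over 12 samples thus reflect no more than how far these samples scatter, in part perhaps technically. Were both samples of a pair repeats of 1 plant sample, n would be 3 per group, so averages of the pairs are given beside the 12 samples.

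The probe of LAS was the brightest of the members. Its deposited intensity in control samples had a lowest value of 0.805, a median of 0.883 and a highest value of 0.951. At high iron these were 0.764, 0.798 and 0.886. The deposited ranges overlapped, and in 5 of 6 sample numbers the high iron value was the lower one. The probe's place within its array moved the other way. It was brighter than 74.9% ± 3.10 (SD, n = 6) of probes in control samples, against 80.2% ± 1.56 at high iron. Brightness depends on the probe as well as on the transcript, so such places do not rank the 3 transcripts against each other.

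After quantile normalization control samples had a log2 level of LAS of -0.35 ± 0.10 (SD, n = 6) and high iron samples one of -0.16 ± 0.07. Control values ran from -0.47 to -0.20 and high iron values from -0.21 to -0.04, so the groups overlapped only between control sample 5 and high iron samples 2 and 5. The change was 0.19 (SE 0.06, 95% interval 0.07 to 0.31, limma adjusted p = 0.0201), and high iron was higher in 5 of 6 sample numbers. An exact permutation test over the 12 samples, two-sided, gave p = 0.00649. By size the change was modest, as 36.5% of all probes had a smaller one. Over the averages of the pairs the SE was 0.09 and LAS did not pass (adjusted p = 0.256), although the 3 high iron averages lay above the 3 control averages. The share of all probes with averages separated in this way was not taken. The exact test over averages gave p = 0.10, the smallest that 3 against 3 allows. Over averages 0 of the 3 members passed in limma, where 2.38% of all probes passed. Also 0 of 3 had an unadjusted p under 0.05, and the share of all probes at that level was not taken.

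**Figure D1:**
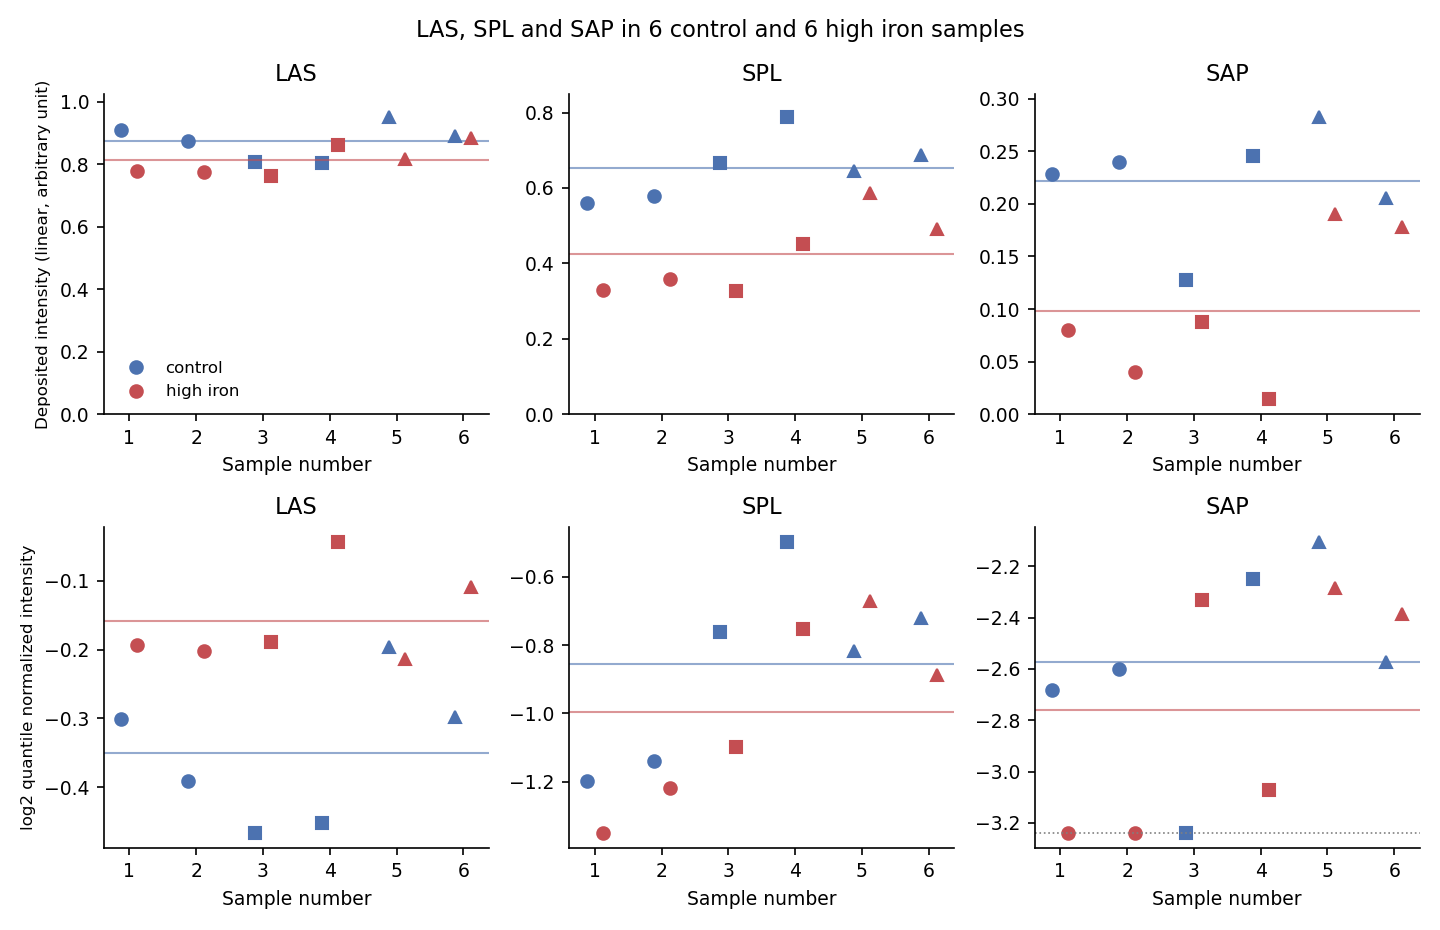
Intensity of LAS, SPL and SAP by sample number for control (blue) and high iron (red) samples. The upper row shows deposited intensity on a linear axis from 0 and the lower row log2 quantile normalized intensity; marker shapes show the pairs 1 and 2, 3 and 4, 5 and 6, horizontal lines are group means of 6 samples, and the dotted line is the floor of -3.24. LAS lies lower at high iron in the upper row and higher in the lower row, and for SAP 1 control and 2 high iron values lie at the floor.

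The size of the LAS change differed by sample-number pair. It was 0.15 in samples 1 and 2, 0.34 in samples 3 and 4 and 0.09 in samples 5 and 6. All were above 0, as they were for 28.2% of all probes. The interaction of group with pair did not pass (limma adjusted p = 0.117), and 35% of all probes passed it. After median scaling it did (0.0249), with 0.37, 0.66 and 0.23 in the pairs, where 41.6% of all probes passed. This test treats the samples of a pair as independent. Without samples 3 and 4 of both groups the change was 0.12 (adjusted p = 0.181), and without the high iron samples 3 and 4 alone it was 0.17 (0.0611). Without samples 1 and 2 of both groups it was 0.21 (0.0877), and without samples 5 and 6 it was 0.25 and passed (0.0200).

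The sign of the LAS estimate depended on the scaling. With each array divided by its median, LAS rose by 0.42 (SE 0.08, adjusted p = 0.00153), as 24.7% of all probes did, and every high iron value exceeded every control value, which held upward for 16.7% of all probes. With the values as deposited LAS stood at -0.10 (SE 0.06, adjusted p = 0.163). The median change of all probes was 0.02 after median scaling and -0.40 as deposited. Relative to it, LAS was at 0.40 and 0.30. The 344 probes of like brightness (10 classes of equal size) had median changes of -0.04 after quantile normalization, 0.13 after median scaling and -0.40 as deposited, each below LAS.

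Probes numbered near LAS shifted upward at high iron as a group. The 4 nearest probe numbers had a median change of 0.40, with a range from -0.18 to 0.72. A running median over 21 neighbouring numbers shifted by 0.47 at the place of LAS, a higher shift than at 97.7% of all probes. That shift was 0.41, 0.67 and 0.33 in the 3 sample-number pairs, and thus also largest in samples 3 and 4. With the running median removed, LAS passed with the other sign, at -0.28 (SE 0.09, adjusted p = 0.0320), where 16% of all probes passed downward, and stood at -0.26, -0.33 and -0.25 in the pairs. Of the 1149 probes that passed after quantile normalization, 29 changed sign in this way, and 2, one of them LAS, also passed with the other sign. The sources used here do not say whether probe numbers follow the layout of the array, and the part of position in the LAS result was not tested otherwise.

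**Figure D2:**
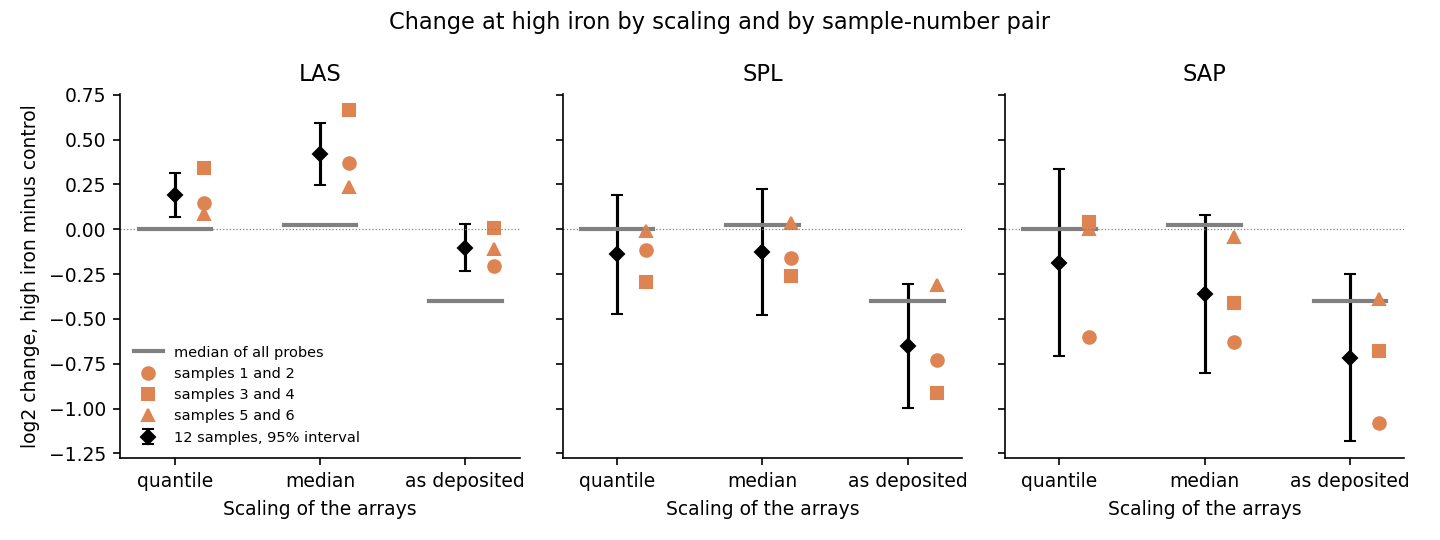
log2 change at high iron minus control under each scaling of the arrays. Black diamonds are the 12 samples with their 95% interval, orange markers the values within each sample-number pair, and grey bars the median change of all 3439 probes. LAS stands at 0.19, 0.42 and -0.10, SPL at -0.14, -0.13 and -0.65, and SAP at -0.19, -0.36 and -0.72.

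For SPL the deposited intensity in control samples had a lowest value of 0.559, a median of 0.655 and a highest value of 0.787. In high iron samples the values were 0.328, 0.405 and 0.588. High iron was lower in 6 of 6 sample numbers, and the ranges overlapped only because high iron sample 5 exceeded control samples 1 and 2. The mid-range probe was brighter than 56.5% ± 10.3 (SD, n = 6) of probes in control samples, against 51.2% ± 10.3 at high iron.

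After quantile normalization control samples had a log2 level of SPL of -0.86 ± 0.27 (SD, n = 6) and high iron samples one of -0.996 ± 0.269. Control values ran from -1.20 to -0.50 and high iron values from -1.35 to -0.67. The groups overlapped over most of their range, and the spread between pairs exceeded the difference between groups. In control the pair averages were -1.17 for samples 1 and 2, -0.63 for 3 and 4 and -0.77 for 5 and 6. In high iron samples they were -1.28, -0.93 and -0.78, so samples 1 and 2 were lowest in both groups. The change was -0.14 (SE 0.15, 95% interval -0.47 to 0.19, limma adjusted p = 0.520). The two-sided exact permutation test gave p = 0.372. Within the pairs the change was -0.12, -0.29 and -0.01, and the interaction with the pair did not pass (adjusted p = 0.497).

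Among the settings tried, SPL passed only with deposited values or with samples weighted by their quality. As deposited it stood at -0.65 (SE 0.16, adjusted p = 0.00549), where 46.6% of all probes passed downward. The values within the pairs were then -0.73, -0.91 and -0.31. The 343 probes of like brightness had a median change of -0.53 as deposited, and relative to the median of all probes SPL was at -0.25. Over averages of the pairs the deposited change did not pass (adjusted p = 0.103), although every high iron average lay below every control average. The share of all probes with such a separation was not taken. With array weights in limma SPL stood at -0.42 (SE 0.14, adjusted p = 0.0255), and 23.4% of probes passed downward. After median scaling it stood at -0.13 (adjusted p = 0.591), with -0.16, -0.26 and 0.04 in the pairs.

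The dimmest member was SAP, which lay near the floor. Its deposited intensity in control samples had a lowest value of 0.127, a median of 0.234 and a highest value of 0.282. At high iron these were 0.0148, 0.0842 and 0.191. High iron samples 1 to 4 were all below every control sample, and high iron samples 5 and 6 lay inside the control range. SAP was brighter than 13.1% ± 3.83 (SD, n = 6) of probes in control samples, against 11.3% ± 4.34 at high iron.

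After quantile normalization SAP had a log2 level of -2.57 ± 0.40 (SD, n = 6) in control samples, against -2.76 ± 0.47 at high iron. At the floor were 1 control value, that of sample 3, and 2 high iron values, those of samples 1 and 2. Samples of the same pair differed by up to 0.99, in control samples 3 and 4. The change was -0.19 (SE 0.24, 95% interval -0.71 to 0.33, limma adjusted p = 0.595), and the two-sided exact permutation test gave p = 0.474. It was -0.60 in samples 1 and 2, 0.04 in samples 3 and 4 and 0.003 in samples 5 and 6. Normalization raised SAP on every high iron array and lowered it on every control array. The largest rises were on the arrays with most zeros, high iron samples 3 (278 zeros) and 4 (271). Their deposited intensities of 0.0881 and 0.0148 became 0.199 and 0.119. High iron sample 2, with 145 zeros, went from 0.0402 to 0.0597, and control sample 3, with 142 zeros, from 0.127 to 0.0993. The part of the zeros in the change of SAP was not tested. The interaction with the pair did not pass (adjusted p = 0.490). Across the members 0 of 3 therefore passed this interaction in limma after quantile normalization, where 35% of all probes passed. At an unadjusted p under 0.05 it was also 0 of 3, and the share of all probes at that level was not taken. Without samples 1 and 2 of both groups SAP stood at 0.02.

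As deposited SAP passed at -0.72 (SE 0.21, adjusted p = 0.0147), with values of -1.08, -0.68 and -0.39 in the pairs. On that scale 4 of 6 high iron values lay at the floor, an intensity of 0.111, so this size depends on the floor. Relative to the median of all probes it was -0.32. Over averages of the pairs it did not pass (adjusted p = 0.101). After median scaling SAP stood at -0.36 (adjusted p = 0.187). Other floors were tried only after quantile normalization, where the change was -0.19 with the floor at the 5th percentile. There SAP stood at -0.32 with no floor (adjusted p = 0.460) and at -0.02 with the floor at the 10th percentile (0.924).

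**Figure D3:**
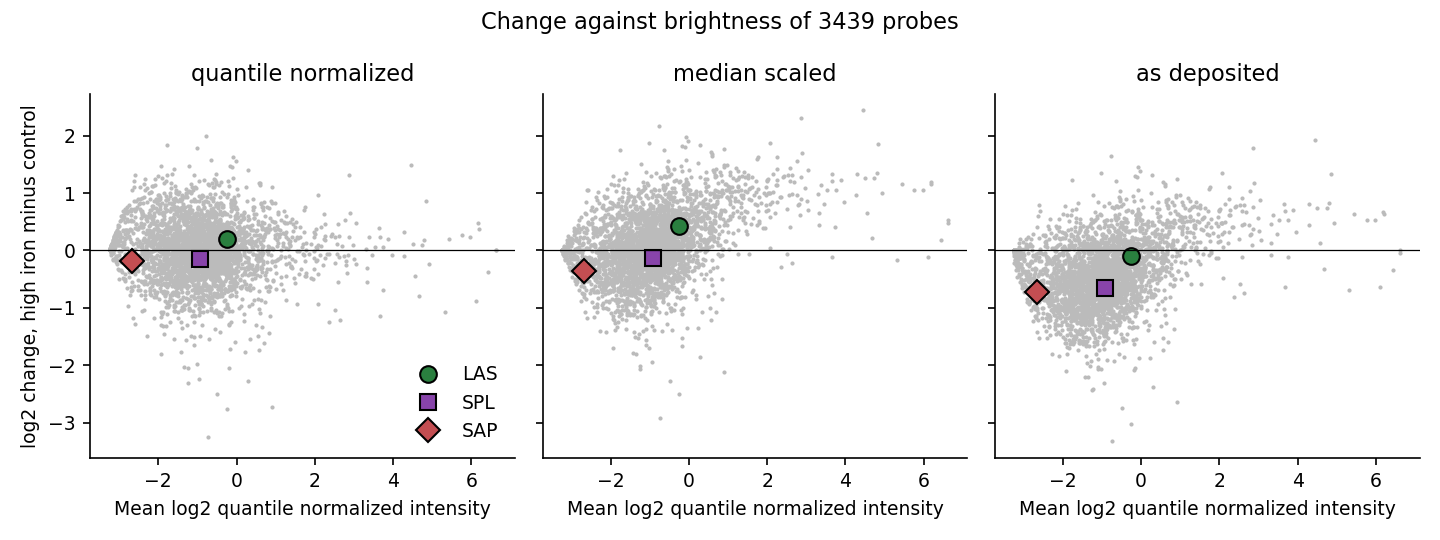
log2 change at high iron minus control against the mean log2 quantile normalized intensity of each of 3439 probes (grey), under 3 scalings, with the members marked. Over 10 classes of brightness, the class median is 0.80 (median scaling) and 0.28 (as deposited) for the brightest probes, -0.16 and -0.67 for the third dimmest class, and 0 under both for the dimmest, the class in which the floor lies. With quantile normalization the medians of the classes lie between -0.05 and 0.10. LAS lies on the bright side, SPL near the middle and SAP at the dim end.

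Over the alternative settings, LAS was positive in all that kept quantile normalization except the one that removed the running median. It passed in all 12 fits that left out 1 sample (0.17 to 0.22, adjusted p from 0.00973 to 0.0468). Each of these fits kept the other sample of the pair, which deviated together with the one left out. Of the fits without a whole pair in both groups, LAS passed only in the one without samples 5 and 6. Over those 12 fits SPL ranged from -0.21 to -0.07 and SAP from -0.32 to -0.09, with 0 passing in limma (lowest adjusted p of 0.332 and 0.321). SPL was below 0 in all 34 alternative settings, from -0.65 to -0.01. Values of single pairs under another scaling are not among these, and SPL was above 0 at 0.04 in samples 5 and 6 after median scaling and at 0.09 in samples 1 and 2 with the running median removed.

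**Figure D4:**
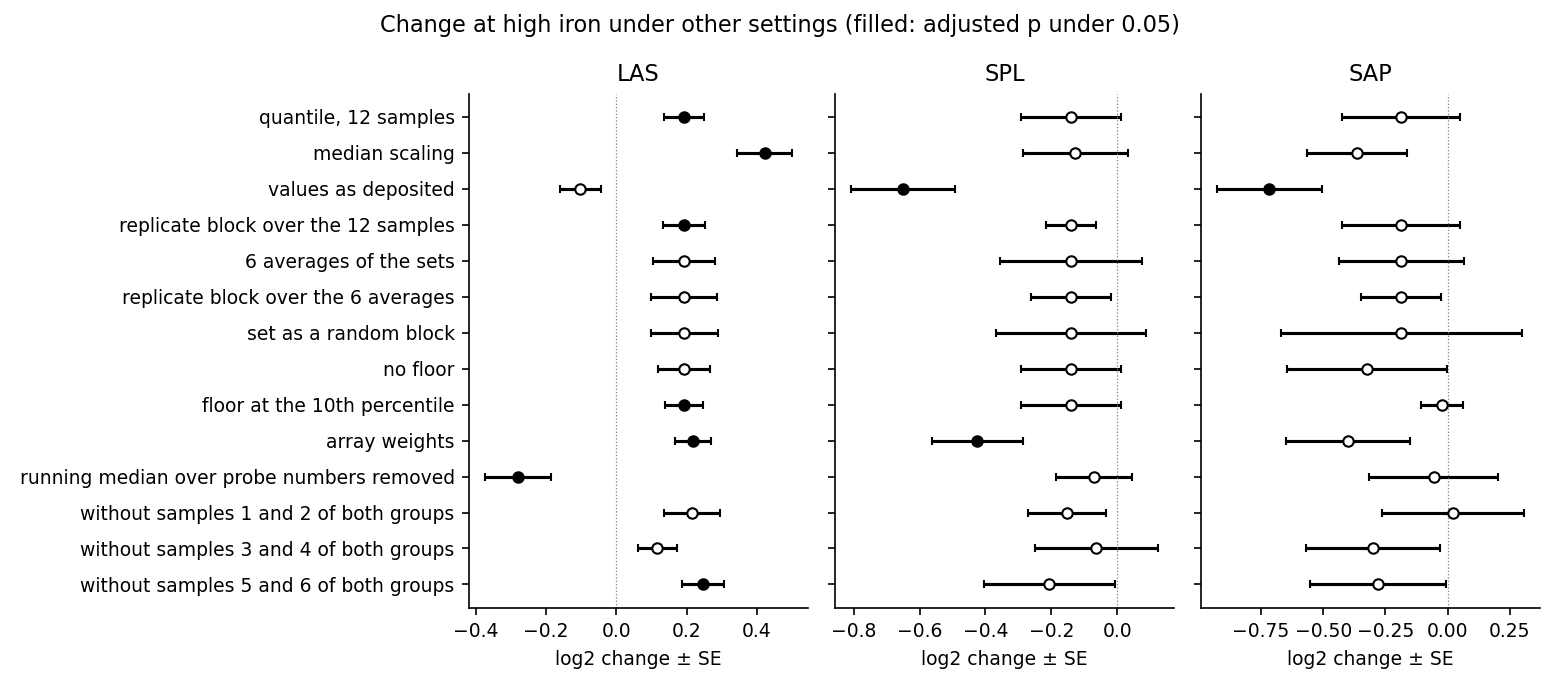
log2 change at high iron minus control with its SE for each member under quantile normalization with 12 samples and 13 other settings; filled points have a limma adjusted p under 0.05, and horizontal scales differ between panels. LAS crosses to the negative side with deposited values (-0.10, open) and with the running median removed (-0.28, filled). It is also filled in the main fit, after median scaling, with the replicate block over the 12 samples and with the floor at the 10th percentile. The same holds with array weights and without samples 5 and 6. SPL is filled with deposited values and with array weights, and SAP with deposited values only.

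The pathways around the members could hardly be followed. Of 117 genes in 6 lists, covering axillary meristems and organ boundaries, the GRAS family, shoot meristems, floral meristem and organ identity, anther, ovule and sporogenesis genes, and SAP partners, 3 had a probe of their own. These were the members themselves. The other 114 were not analysed here, among them the flower organ genes AP1, AP3, PI, AG and SEP3 used as markers of flowers. Of marker genes for photosynthetic tissue, 4 of 6 were measured, and for root (5), seed (4) and flower organs (5) 0 were. The summed deposited intensity of the 4 photosynthetic markers was 24.2 to 32.8 in control and 39.4 to 54.3 in high iron samples, without overlap. As deposited 4.89% of all single probes lay upward without overlap. This sum weighs PSBW most, the brightest of the 4. Its control log2 level after quantile normalization was 4.70, against 2.17 for PSAN, 1.59 for LHB1B2 and -0.10 for PSBY. PSBY changed by 0.01 as deposited, and the brightest of 10 classes of all probes by a median of 0.28. After quantile normalization 0 of the 4 passed in limma, where 33.4% of all probes passed. At an unadjusted p under 0.05 it was 1 of 4, and the share of all probes at that level was not taken. After median scaling 3 of 4 passed upward, as 24.7% of all probes did, and as deposited also 3 of 4, where 8.46% did. PSBW stood at 0.19 (adjusted p = 0.116), at 1.34 after median scaling (9.25e-05) and at 0.82 as deposited (0.000395), and with the replicate block it passed (0.0105), where 22.1% of all probes passed upward. After quantile normalization PSBY at 0.20 (0.317) and PSAN at -0.08 (0.500). Their part in the values of LAS, SPL and SAP was not tested.

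Among the genes with a probe of their own, 7 other developmental regulators were chosen by name after the annotation and the data were seen. Their counts and median beside those of all probes are therefore a description and no test of the group. After quantile normalization 4 rose, 1 fell and 2 (AGL54 and FBL17) did not pass, where 18.2% of all probes passed upward and 15.2% downward. The median change of the 7 was 0.33, against 0.00 over all probes, and it was 0.29 against 0.02 after median scaling. As deposited its sign turned, to -0.23 against -0.40 over all probes. The MADS-box genes AGL103 and AGL26 rose by 0.62 (SE 0.11, adjusted p = 0.00148) and 0.44 (SE 0.10, 0.00496). DME, the DNA glycosylase that removes methylated cytosine in the central cell of the female gametophyte, rose by 0.33 (SE 0.09, 0.0139). IYO, which is needed for the onset of cell differentiation, rose by 0.45 (SE 0.10, 0.00500). TCP15, a transcription factor of leaf and flower growth, fell by 0.50 (SE 0.11, 0.00391). FBL17, an F-box protein of the cell cycle in pollen development, stood at -0.42 (SE 0.17, 0.0895), below 0 in all 3 pairs. It passed downward with the replicate block (0.00624), where 18.4% of all probes did, after median scaling at -0.60 (0.0105), where 12.7% did, and as deposited at -1.12 (0.000286). Over averages of the pairs 0 of the 7 passed in limma, where 2.38% of all probes did. An unadjusted p under 0.05 was found for 4 of 7, and the share of all probes at that level was not taken. With the pair as a random block 1 of 7 passed, against 14.3% of all probes. With deposited values 3 passed, all downward, a share near the 46.6% of all probes. With the running median removed 2 passed, 1 in each direction, against 34.1% of all probes in either direction.

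The genes whose log2 values over the 12 samples were most like those of each member, among 589 other single-gene probes with no value at the floor (590 for SAP), were found by Pearson correlation, as a description. For LAS they were AT2G26680 (r = 0.89), AT4G37230 (0.89) and AT2G23070 (0.86), the last coding for a casein kinase of plastids. With each group's mean removed these were 0.74, 0.78 and 0.63, after median scaling 0.89, 0.89 and 0.88, and with deposited values 0.44, 0.17 and 0.33. For SPL the nearest were AT5G59400 (0.88), AT3G59300 (0.86) and AT4G17650 (0.86), with 0.87, 0.86 and 0.91 after removal of the group means. After median scaling these were 0.77, 0.86 and 0.86, and as deposited 0.94, 0.94 and 0.91. For SAP they were AT4G30150 (0.75), AT1G77730 (0.74) and AT2G35490 (0.70), with 0.74, 0.74 and 0.70 after that removal. After median scaling they were 0.74, 0.81 and 0.36, so the last depended on the scaling, and as deposited 0.89, 0.89 and 0.84. The 12 points share the sample-number pairs and the scaling of the arrays, and SAP's include its 3 values at the floor.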

How the data were processed

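The authors deposited 1 intensity per probe for each of 12 arrays, on a linear scale. The labels do not say how arrays were scanned, corrected for background or scaled, so unit and centring are unknown. The number of arrays limits precision. Groups came from the labels' source names and replicate numbers from the titles. A platform annotation, possibly outdated, gave the genes of the probes (692 with 1 gene, 870 with several, 1877 with none listed). A RefSeq table of assembly TAIR10.1, matched by gene number, gave current symbols for 690 of the 692. No positions are printed because the sources used here name no genome build.

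Arrays were quantile normalized and floored at the 5th percentile of positive values (0.106) before log2, so changes of dim probes come out too small. All 3439 probes were fitted, two-sided and unpaired, with lmFit and trended eBayes (limma 3.58.1, R 4.3.3) and Benjamini-Hochberg adjustment. The fit was tested on simulated arrays. Random blocks used duplicateCorrelation with statmod 1.5.0. Between the groups, same-numbered samples deviated together, with correlations of 0.52, 0.51, 0.21, 0.13, 0.52 and 0.51. For 12 of 12 samples the best match in the other group had the same number. The numbers may therefore pair the samples, on the evidence of the data only, since the labels state no pairing. The main fit and the exact tests leave this pairing out, and the fits with a replicate block take it in. With that block over the 12 samples the SE of SPL was 0.075, against 0.152 in the main fit, and that of LAS 0.061 against 0.056.

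The members and gene lists were chosen with earlier results of these data known. Named were the members, list genes that passed, up to 3 others per list in order of adjusted p, and the 3 genes most correlated with each member. The list of developmental regulators, the fit without high iron samples 3 and 4, and averages or replicate blocks under other scalings were added after the data were seen.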

Additional observations from a re-analysis of the deposited data

How the results depend on the processing

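LAS stood at -0.10 with deposited values, also over the averages and with the replicate block, and at -0.28 with the running median over probe numbers removed, where it passed. It did not pass at 0.19 over the averages of the pairs, over the averages with a replicate block (adjusted p = 0.273), with the pair as a random block (0.216), with no floor (0.0610) or without the dimmest 25 percent of probes (0.0849). Nor did it at 0.42 over averages after median scaling (0.0990), at 0.21 and 0.12 without samples 1 and 2, or 3 and 4, of both groups, or at 0.17 without high iron samples 3 and 4. Within samples 3 and 4 it was 0.34 and within samples 5 and 6 it was 0.086. The interaction of LAS with the pair passed after median scaling (0.0249). SPL passed at -0.65 with deposited values, with and without the replicate block, and at -0.42 with array weights. SAP passed at -0.72 with deposited values, with and without that block, and stood at 0.022 without samples 1 and 2. SAP, among the dimmest 25 percent, was not tested in the fit without those probes. The cause of these differences was not tested. With quantile normalization the replicate block over 12 samples changed no call of the members (LAS adjusted p = 0.0470, SPL 0.184, SAP 0.573).

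All probes that passed numbered 1149 with quantile normalization, 1892 as deposited and 2124 as deposited with the replicate block. Over averages they numbered 82, 259 after median scaling and 449 as deposited, with the pair as a random block 491, and over averages with the replicate block 1. Leaving out 1 sample gave 1000 to 1172. Upward calls were 625 of 1149 with quantile normalization, 850 of 1286 after median scaling and 291 of 1892 as deposited.

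Of the 7 list genes with a probe (the members and 4 photosynthetic markers) 1 passed, where 33.4% of all probes did. The count was 4 after median scaling (37.4% of all probes) and also 4 with the replicate block added (42.6%). It was 5 as deposited (55%), again 5 with the block added (61.8%), and 2 with that block alone (40.5%). Array weights gave 3 (48.3%), averages of median scaled arrays 3 (7.53%), and the fit lacking samples 5 and 6 in both groups also 3 (32.8%). In 9 settings 0 passed in limma (0 to 5 with an unadjusted p under 0.05), namely over averages, also as deposited or with a replicate block, with the random block, with no floor, without dim probes, and without samples 1 and 2, samples 3 and 4, or high iron samples 3 and 4. In those 9 settings 0.0291% to 39.2% of all probes passed, and their share at an unadjusted p under 0.05 was not taken. PSAN stood at 0.84 after median scaling and 0.32 as deposited. As deposited AGL26 stood at -0.014, DME at -0.23 and IYO at -0.14, each also over averages and with the replicate block.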
